A study of Medicago truncatula with 6 samples.

Results

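The defence, WRKY and peroxidase genes of *M. truncatula* roots described here are 8 of the 50443 genes in the deposited table. They are a Bet v I family protein (Medtr4g120950), a disease-resistance response protein (Medtr2g035170), an Avr9/Cf-9 rapidly elicited protein (Medtr5g077510), 3 WRKY transcription factors (Medtr8g099350, Medtr7g071120 and Medtr4g132430) and 2 class III peroxidases (Medtr5g083860 and Medtr4g029200). They were picked from the comparison of roots with and without the fungus, among genes that the study lists as changed. Their difference between the groups is therefore a description and was not tested. The roots came from *M. truncatula* A17 plants inoculated with *Gongronella* sp. w5 (w5), a soil fungus of the Mucoromycotina, for 16 days, and from plants without w5. Each group had 3 biological replicates. According to the paper's methods, w5 was placed on a glucose medium in one part of the plate and the plants on MSR medium without glucose in the other. Only roots in contact with the mycelium were taken, and control plants grew alone on MSR medium. Whether the control plates also held the glucose medium is not stated, so that w5 and this medium cannot be told apart here.

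Plant roots can answer fungal contact with proteins that are made early and in quantity. Pathogenesis-related proteins of the Bet v I fold (the PR-10 class) collect in the cytoplasm, and some members bind hormones or flavonoids. WRKY factors bind W-box elements in promoters and switch defence genes on or off. Class III peroxidases are secreted enzymes that use hydrogen peroxide to oxidise phenolic compounds, and they take part in building lignin and suberin and in making reactive oxygen. Many of these genes also respond to beneficial fungi and rhizobia.

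The libraries with w5 held between 6547753 and 6822646 counts and those without w5 between 6983430 and 7539956. For one gene across libraries the unit is CPM, its counts for every 1e+06 TMM-scaled counts over the 16905 tested genes. Levels of different genes are compared as FPKM, the authors' value that divides the counts by gene length and by the library total. In these bulk samples fewer cells of a type and less RNA per cell cannot be told apart. Photosynthesis genes moved with the group: the summed level of 44 such genes from the study's list ran from 2743 to 3494 CPM with w5 and from 5534 to 9998 CPM without w5, and none of the 44 was at 0 in any library. Of these genes 42 were tested and all 42 had an unadjusted p under 0.05 and a log2 fold change under -1, as did 2.73% of all tested genes. The study's list was chosen on these libraries, and all its genes meet such thresholds in the study. That the 42 passed was thus nearly fixed beforehand, and nothing is read from this count. The part of these genes in the results below was not tested. Further, 5 symbiosis receptor and signalling genes had counts in every library. They were taken as root genes from general knowledge and have no annotation in the sources used here. Their sums ran from 154 to 300.1 CPM with w5 and from 141 to 272 CPM without w5, which overlapped. The most abundant of them had between 92.1 and 202 CPM. Another had 7, 7 and 12 counts with w5 and 14, 12 and 45 counts without w5. Such counts cannot show that the samples held root tissue only.

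In each of the 8 genes the 3 libraries with w5 all exceeded the 3 without w5. Over all tested genes this held for 7.02%, and the reverse for 9.04%, and since the 8 genes were chosen on this contrast nothing is read from their count. The fitted log2 fold changes ran from 1.06 to 2.69 with a median of 1.30, beside a median of -0.01 over all genes tested. All 8 passed the expression filter. The separation was wide in the Bet v I gene, where the lowest w5 library was 2.81 times the highest control library, and narrow in the peroxidases, where this ratio was 1.11 for Medtr5g083860 and 1.06 for Medtr4g029200.

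**Figure D1:**
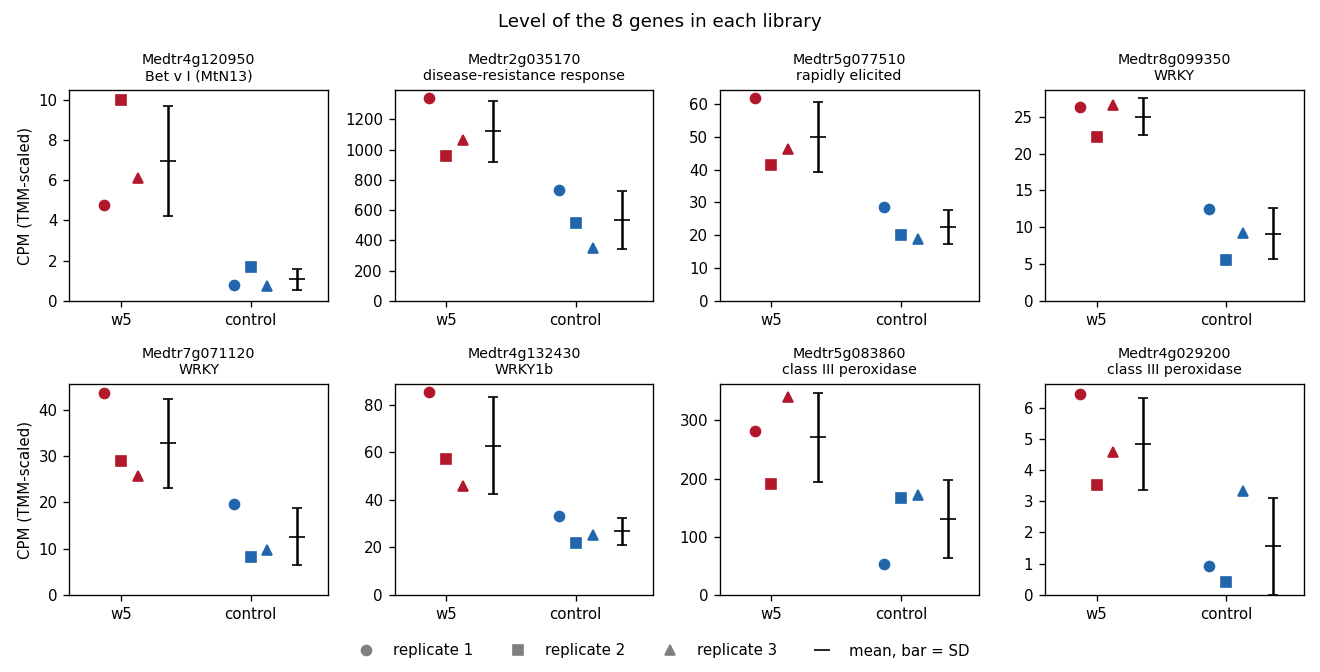
Level of each of the 8 genes in CPM (vertical axes from 0) in the 3 libraries with w5 (red) and the 3 without w5 (blue). Symbols mark the replicate number and black bars the mean and SD. The groups do not overlap in any panel, and in the 2 peroxidase panels the lowest w5 library stands just above the highest control library.

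The levels of the 8 genes covered a wide range. Per length, Medtr2g035170 was the most abundant, with 811 ± 147 FPKM with w5 and 391 ± 142 FPKM without w5 (SD, n = 3 in each group), and it stood at rank 50 among the 16905 tested genes by its mean over all libraries. Medtr5g083860 followed with 211 ± 57.4 FPKM with w5 and 102 ± 52.6 FPKM without w5 (SD, n = 3 in each group), at rank 497. Medtr4g132430, Medtr5g077510, Medtr8g099350 and Medtr7g071120 had between 21.9 and 29.5 FPKM with w5 and between 8.41 and 12.8 FPKM without w5 as group means, and their library ranges overlapped in both groups. Medtr4g120950 had 10.2 ± 4.03 FPKM with w5 and 1.58 ± 0.802 FPKM without w5 (SD, n = 3 in each group). Medtr4g029200 was the lowest with 3.72 ± 1.14 FPKM with w5 and 1.20 ± 1.19 FPKM without w5 (SD, n = 3 in each group). These last 2 genes were separate in the roots with w5 and overlapped in the roots without w5. The 8 genes together took between 0.131% and 0.185% of all counts with w5 and between 0.0587% and 0.0888% without w5. Medtr2g035170 alone made up between 68.2% and 73.0% of that sum with w5 and between 59.6% and 83.3% without w5.

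Medtr4g120950, the Bet v I gene, is matched to the RefSeq gene with the synonym MtN13. MtN13 is known as a nodulin of the PR-10 type from *M. truncatula*, whose product binds cytokinins, and the gene is annotated with defence, nodulation and cytokinin signalling terms. It lies at 50072677 to 50073866 of chromosome 4 (minus strand), and the genome build of all positions here is not given in the sources used. The gene had 31, 68 and 40 counts with w5 and 6, 12 and 5 counts without w5. In CPM these were 4.74, 9.98 and 6.11 with w5, against 0.792, 1.68 and 0.721 without w5. Replicate 2 was the highest library in both groups, and the groups stood well apart. The mean was 6.94 ± 2.72 CPM with w5 and 1.07 ± 0.537 CPM without w5 (SD, n = 3 in each group), which is 6.51 times as much. The log2 fold change of 2.69 (standard error, SE, 0.49) was the 16th highest of all tested genes. Counting error is wide at these depths: the 95% exact Poisson interval of the lowest w5 library was 21.1 to 44.0 counts, and that of the highest control library was 6.20 to 21.0 counts, and both cover counting error only.

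Of the 3 other genes that the study's list annotates as Bet v I proteins, 2 were too low for the expression filter. Medtr4g120970 had 28, 22 and 5 counts with w5 and 1, 3 and 2 counts without w5, so that its w5 libraries lay above the controls, with w5 replicate 3 close to them. The study's list places this gene on chromosome 6, although its ID is numbered with those of chromosome 4, so its position is in doubt. Medtr8g045555 had 19, 4 and 20 counts with w5 and 3, 0 and 7 counts without w5, and the groups overlapped. The remaining one, Medtr1g031640, went the other way. It had 30, 114 and 79 counts with w5 and 308, 214 and 188 counts without w5, with a log2 fold change of -1.55 (SE 0.41, edgeR adjusted p = 0.170, from the quasi-likelihood F test over all tested genes). The w5 libraries thus lay above the controls in Medtr4g120950 and Medtr4g120970 and below them in Medtr1g031640.

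Medtr2g035170 is annotated as a disease-resistance response protein, with defence response as its only functional term. It lies at 13519529 to 13521345 of chromosome 2 (plus strand). It had 1341, 955 and 1064 CPM in the 3 libraries with w5 and 736, 517 and 352 CPM in the 3 libraries without w5. Replicate 1 was the highest in both groups, and control replicate 3 the lowest of all 6 libraries. The mean was 1120.1 ± 199 CPM with w5 and 535 ± 193 CPM without w5 (SD, n = 3 in each group), for a log2 fold change of 1.07 (SE 0.27). Within the controls the highest library had 2.09 times the level of the lowest, which is as large as the ratio of the group means (2.09).

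The other 2 genes with this annotation, Medtr2g035130 and Medtr2g035150, stand directly before Medtr2g035170 in the RefSeq gene order of assembly MtrunA17r5.0-ANR, where the PR10-1 gene comes 5 places earlier than Medtr2g035170. Medtr2g035130 had 253, 138 and 137 counts with w5 and 126, 50 and 38 counts without w5. Its log2 fold change was 1.45 (SE 0.44, edgeR adjusted p = 0.235). Medtr2g035150 had 339, 270 and 179 counts with w5 and 135, 236 and 40 counts without w5, and the groups overlapped. Its log2 fold change was 1.07 (SE 0.53, edgeR adjusted p = 0.537). Close copies in such a cluster may share reads, so the split of counts between these genes is uncertain.

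The gene IDs from Medtr2g035100 to Medtr2g035190 number 10. Of these, 3 stood at 0 counts throughout, and the 6 tested genes beside Medtr2g035170 all had fold changes above 0, as did 49.3% of all tested genes. Of the 6, only Medtr2g035130 passed an unadjusted p under 0.05 with a log2 fold change over 1, a pair of thresholds that 2.03% of all tested genes passed on the higher side. The most abundant of the unannotated IDs were Medtr2g035105, with 304 ± 35.1 CPM with w5 and 173 ± 34.9 CPM without w5, and Medtr2g035100, with 294 ± 103 CPM with w5 and 193 ± 32.1 CPM without w5 (SD, n = 3 in each group). Medtr2g035105 had a log2 fold change of 0.81 (SE 0.19, edgeR adjusted p = 0.116) and did not overlap between the groups, while Medtr2g035100 did. Around all 8 genes, the 5 IDs on either side gave 80 genes, of which 28 were tested, and 2 passed these thresholds on the higher side and none on the lower. The second of them was Medtr5g083810, near the peroxidase Medtr5g083860, with 49, 203 and 150 counts with w5 and 6, 36 and 17 counts without w5. These ID windows were chosen after values of the cluster had been seen.

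**Figure D2:**
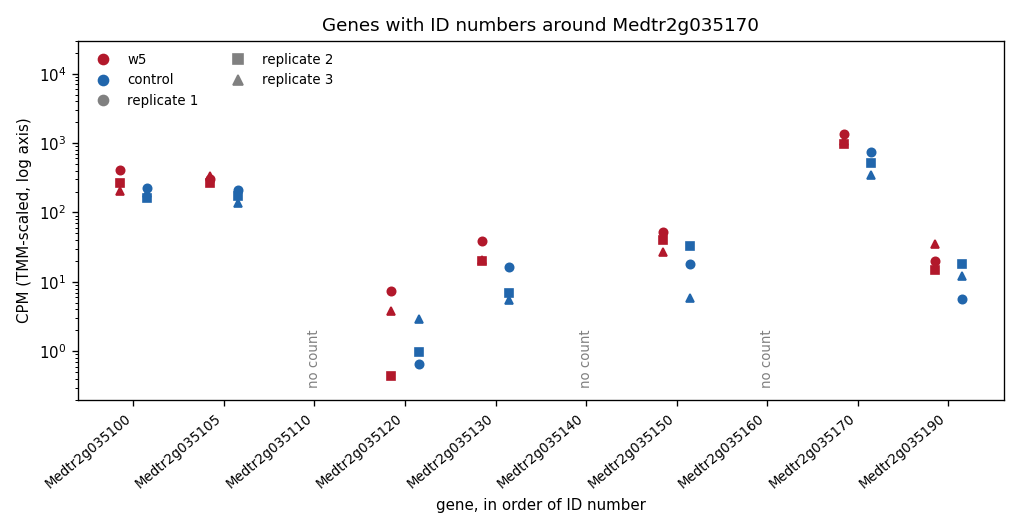
CPM on a log axis for the 10 genes with ID numbers from Medtr2g035100 to Medtr2g035190, in the order of their IDs, with libraries with w5 in red left of those without w5 in blue. The 3 IDs marked "no count" stood at 0 counts throughout, and Medtr2g035170 stands above its neighbours in both groups.

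Medtr5g077510 belongs to the genes named after tobacco transcripts that appear soon after the fungal peptide Avr9 is recognised by the tomato resistance protein Cf-9. Its functional terms are those of ubiquitin transfer, the step that marks proteins for turnover. It lies at 33088722 to 33090476 of chromosome 5 (plus strand). The gene had 61.9, 41.4 and 46.3 CPM in the libraries with w5 and 28.5, 20.1 and 18.9 CPM in those without w5. The spread was small in both groups, with the highest library at 1.5 times the lowest with w5 and at 1.51 times without w5. The mean was 49.9 ± 10.7 CPM with w5 and 22.5 ± 5.25 CPM without w5 (SD, n = 3 in each group), for a log2 fold change of 1.15 (SE 0.23). Both other genes of this annotation in the study's list passed the p and fold thresholds on the higher side, as did 2.03% of all tested genes. That list was chosen on these libraries, so their passing tells nothing about genes of this annotation in general. Medtr3g065080 had a log2 fold change of 1.20 (SE 0.32, edgeR adjusted p = 0.171). Medtr8g089920 had 228, 119 and 216 counts with w5 and 151, 55 and 69 counts without w5, with a log2 fold change of 1.18 (SE 0.40, edgeR adjusted p = 0.283), and its w5 replicate 2 fell within the control range.

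The 3 WRKY genes, in the order given here, had similar mean levels by FPKM, of 22.9, 21.9 and 29.5 with w5. Without w5 these were 8.41, 8.47 and 12.7 FPKM. Their fold changes were also similar. Medtr8g099350, at 41853261 to 41854576 of chromosome 8 (minus strand), had 26.3, 22.2 and 26.6 CPM with w5 and 12.5, 5.62 and 9.23 CPM without w5. Its libraries with w5 lay close together, the highest being 1.20 times the lowest, while the controls spread over 2.23 times. The mean was 25.0 ± 2.47 CPM with w5 and 9.13 ± 3.47 CPM without w5 (SD, n = 3 in each group), for a log2 fold change of 1.45 (SE 0.29). Medtr7g071120, at 26331107 to 26333946 of chromosome 7 (minus strand), carries the KEGG entry K13424, that of WRKY33. In *Arabidopsis thaliana*, WRKY33 is required for defence against necrotrophic fungi. It had 43.6, 28.9 and 25.7 CPM with w5 and 19.7, 8.28 and 9.81 CPM without w5, a log2 fold change of 1.37 (SE 0.35). Medtr4g132430, annotated as WRKY1b, lies at 55364605 to 55367021 of chromosome 4 (minus strand). It had 85.3, 57.0 and 45.8 CPM with w5 and 33.1, 21.9 and 25.2 CPM without w5, a log2 fold change of 1.23 (SE 0.26). In both of these genes replicate 1 was the highest library of its group.

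The study's list holds 3 further WRKY genes, and all 3 passed the p and fold thresholds, 2 of them on the lower side. Over all tested genes 2.03% passed on the higher side and 2.73% on the lower. The list was chosen on these libraries, so nothing is read from this count. Medtr7g073380 had 10, 2 and 16 counts with w5 and 80, 33 and 41 counts without w5, with a log2 fold change of -2.30 (SE 0.63, edgeR adjusted p = 0.183). Medtr8g092140 had 9, 31 and 35 counts with w5 and 73, 112 and 41 counts without w5, with a log2 fold change of -1.47 (SE 0.52, edgeR adjusted p = 0.313). The groups did not overlap in either gene. Medtr4g013260 was on the side of the 3 WRKY genes above, with a log2 fold change of 1.17 (SE 0.39, edgeR adjusted p = 0.270). Of the 2 lower WRKY genes, Medtr7g073380 averaged 1.42 ± 1.08 CPM with w5 and 7.04 ± 3.12 CPM without w5, and Medtr8g092140 averaged 3.76 ± 2.10 CPM with w5 and 10.4 ± 4.95 CPM without w5 (SD, n = 3 in each group).

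The 2 class III peroxidases differed in level by more than an order of magnitude. Medtr5g083860, at 36189329 to 36191603 of chromosome 5 (plus strand), had 282, 190.0 and 341 CPM with w5 and 52.4, 166 and 172 CPM without w5. Control replicate 1 stood far below the other controls, with 397 counts against 1180 and 1192. The mean was 271 ± 75.9 CPM with w5 and 130.0 ± 67.2 CPM without w5 (SD, n = 3 in each group), for a log2 fold change of 1.06 (SE 0.42). Without control replicate 1 this was 0.70. Medtr4g029200, at 10082646 to 10084664 of chromosome 4 (minus strand), had 42, 24 and 30 counts with w5 and 7, 3 and 23 counts without w5. Its log2 fold change of 1.64 (SE 0.66) was 2.81 without control replicate 3. The nearest libraries of the groups were 1 count apart in this gene: w5 replicate 2 had 24 counts with a 95% exact Poisson interval of 15.4 to 35.7, and control replicate 3 had 23 counts with an interval of 14.6 to 34.5. One more gene, Medtr6g043460, annotated as a peroxidase family protein, was too low to be tested, with 4, 3 and 9 counts with w5 and 1, 0 and 0 counts without w5.

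The 8 genes did not share one order of libraries. In Medtr2g035170, Medtr5g077510, Medtr7g071120 and Medtr4g132430 replicate 1 was the highest library both with and without w5, which held for 14.5% of all tested genes. The Bet v I gene had its highest level in replicate 2 of both groups, and the peroxidase Medtr5g083860 in replicate 3 of both. Control replicate 1, the highest control in 5 of the 8 genes, was the lowest in Medtr5g083860. In that library the summed photosynthesis genes had 9749.7 CPM, against 9998 CPM in control replicate 2 and 5534 CPM in control replicate 3, and the part of these genes in the values above was not tested. Among the 8 genes, Pearson's r of log2 CPM over the 6 libraries, which includes the difference between the groups, ran from 0.31 for Medtr7g071120 with Medtr5g083860 to 0.97 for Medtr7g071120 with Medtr4g132430. The genes other than the peroxidases and the Bet v I gene had values of 0.86 or more with each other.

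**Figure D3:**
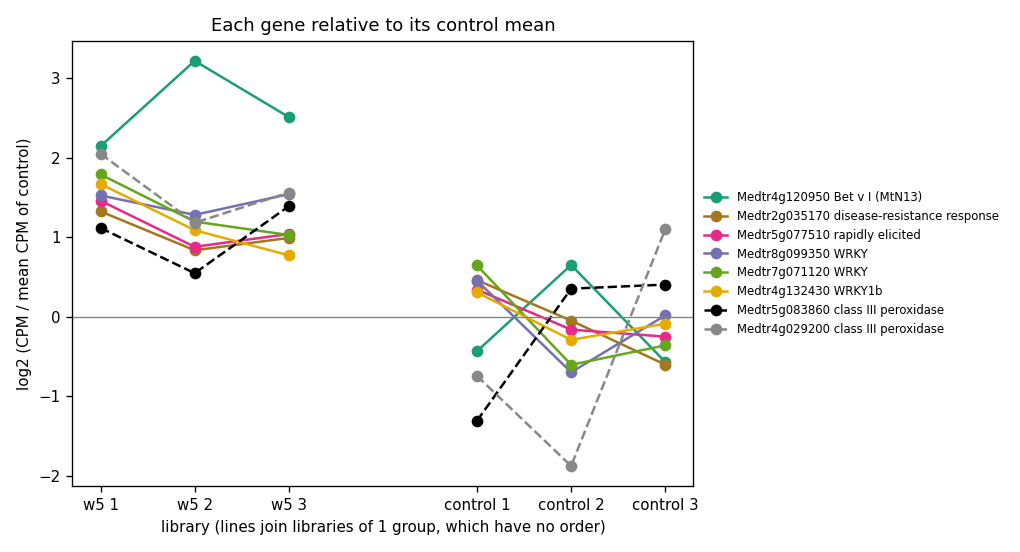
log2 of each gene's CPM over its own mean in the roots without w5, in the 3 libraries with w5 (left) and the 3 without w5 (right). Solid lines mark the Bet v I, disease-resistance response, rapidly elicited and WRKY genes and dashed lines the peroxidases, whose control libraries follow another order than most of the other genes.

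The genes most like the mean pattern of the 8 over the 6 libraries were Medtr2g104120, Medtr5g020840, Medtr2g097620, Medtr7g106450 and Medtr1g109380, with Pearson's r between 0.988 and 0.998. The mean pattern includes the difference between the groups on which the 8 genes were chosen. None of the 5 has an annotation in the sources used here. Medtr2g104120, with the highest r, had only 17, 15 and 15 counts with w5 and 11, 9 and 10 counts without w5. Medtr5g020840 had 141 ± 10.6 CPM with w5 and 78.2 ± 4.71 CPM without w5 (SD, n = 3 in each group), for a log2 fold change of 0.85 (SE 0.14, edgeR adjusted p = 0.0721). The other 4 had log2 fold changes between 0.58 and 0.76. The differences between the groups in these 5 were thus smaller than those of the 8 genes. The 8 were picked from a list of genes with absolute log2 fold changes over 1, and the 5 were not, so nothing is read from this. Values of r over 6 libraries are given as a description only.

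Beyond the 8 genes, the annotation of the study's list gave 29 other genes in 10 defence lists, 11 in the words of the 8 genes and 18 in the 5 further lists (thaumatin, chitinase, CAP, germin and NBS-LRR). Of the 29, 20 were tested, and 10 passed the p and fold thresholds on the higher side and 8 on the lower, where all tested genes gave 2.03% and 2.73%, or 4.77% in either direction. The study chose them on these libraries, and they cannot serve as independent evidence of which way such genes go. No gene of the 29 passed an adjusted p under 0.05 in edgeR's quasi-likelihood test, which 3 of all tested genes did (0.0177%, of which 0.0118% were higher and 0.00592% lower), while 18 had an unadjusted p under 0.05. With DESeq2 8 of the 29 passed, beside 540 of all 25366 genes tested there. With edgeR's exact test 7 did, beside 529 of 16905. The number was 2 with no filter, 1 with limma-voom, 3 with a block for the replicate number and 1 without control replicate 3. In the other alternatives it was 0. Of the 18 calls at the p and fold thresholds, 10 were lost in at least 1 of 14 alternative fits, and without w5 replicate 1 the number on the higher side was 5.

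The CAP genes belong to the family of the PR-1 proteins. Medtr2g435490 had 275 ± 45.2 CPM with w5 and 121 ± 28.1 CPM without w5 (SD, n = 3 in each group), for a log2 fold change of 1.18 (SE 0.21, edgeR adjusted p = 0.0721), and the other, Medtr2g010580, had 8, 13 and 3 counts with w5 and 0, 3 and 1 counts without w5 and was not tested. The germin gene Medtr2g019250, of a family of cell wall proteins, had a log2 fold change of 1.17 (SE 0.45, edgeR adjusted p = 0.360). The 2 thaumatin genes, of the PR-5 family, both passed on the lower side. Medtr8g096920 had 0 counts in each library with w5 and 31, 38 and 19 counts without w5. Against a floor of 3 counts over the 3 libraries with w5 it was at least 26.9-fold lower with w5 (edgeR adjusted p = 0.0705). Medtr5g022350 had a log2 fold change of -1.11 (SE 0.37, edgeR adjusted p = 0.273).

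Both chitinase genes had lower means with w5 at few counts. Chitinases cut the chitin of fungal cell walls. Medtr1g080820, annotated as chitinase, hevein or PR-4, had 14, 2 and 5 counts with w5 and 63, 67 and 11 counts without w5, and its w5 replicate 1 lay above control replicate 3. Medtr6g079630 had 1, 1 and 3 counts with w5 and 12, 15 and 5 counts without w5 and was not tested. The 11 genes annotated as NBS-LRR or related resistance proteins, which sense the effects of pathogens inside the cell, went both ways. Of the 7 tested, 4 passed on the higher side and 2 on the lower. Medtr8g011170 had 42, 45 and 41 counts with w5 and 20, 16 and 22 counts without w5, a log2 fold change of 1.25 (SE 0.32, edgeR adjusted p = 0.152). Medtr6g078930 had 13, 16 and 3 counts with w5 and 40, 36 and 39 counts without w5, a log2 fold change of -1.72 (SE 0.52, edgeR adjusted p = 0.227).

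**Figure D4:**
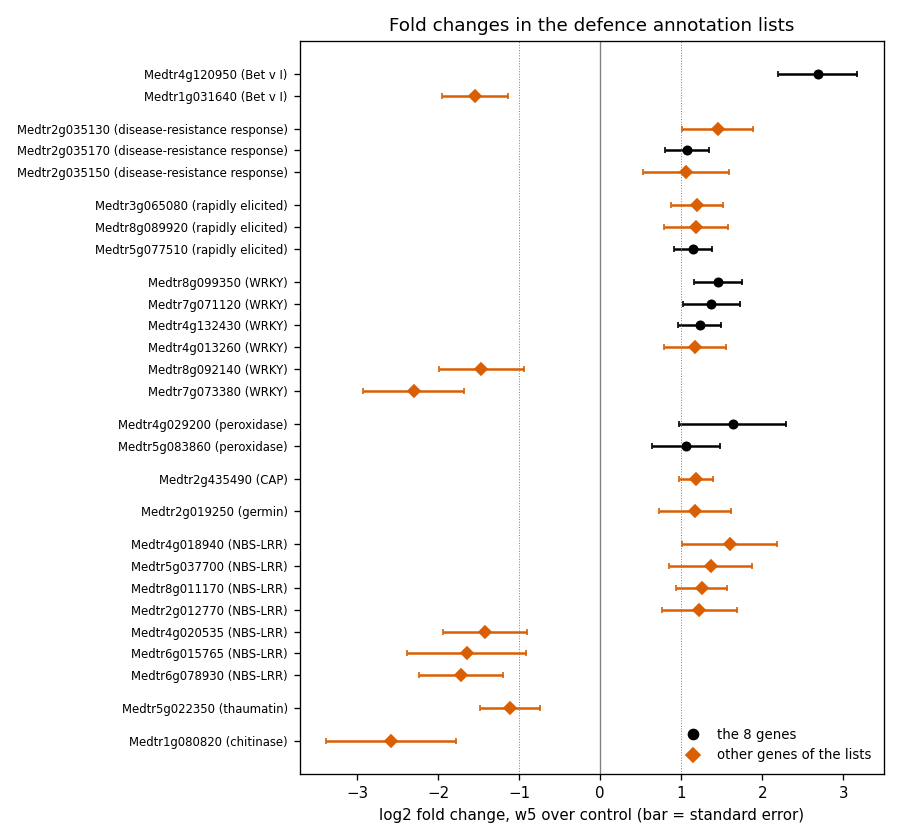
log2 fold change of w5 over control with its standard error for the 8 genes (black circles) and the 19 other tested genes of the defence lists with counts in both groups (orange diamonds), grouped by annotation, with dotted lines at -1 and 1. The rapidly elicited and disease-resistance response genes stand right of 0, and the Bet v I, WRKY and NBS-LRR genes stand on both sides.

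The fold changes of the 8 genes depended on single libraries to different degrees. Over 6 fits that each left out 1 library, the log2 fold change ran from 2.35 to 3.17 for Medtr4g120950, from 0.85 to 1.38 for Medtr2g035170, from 0.97 to 1.37 for Medtr5g077510, from 1.20 to 1.76 for Medtr8g099350, from 1.13 to 1.87 for Medtr7g071120 and from 0.95 to 1.43 for Medtr4g132430. For the peroxidases it ran from 0.70 to 1.33 for Medtr5g083860 and from 1.21 to 2.81 for Medtr4g029200. In Medtr2g035170, Medtr5g077510, the 3 WRKY genes and no other, the highest value came without control replicate 1. That library was the highest control in the same genes, as in 34.3% of all tested genes. Leaving it out lowers their control mean, so this restates the order of the libraries. In 4 of the 8 genes some fit gave a log2 fold change under 1, and in none did it turn its sign.

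**Figure D5:**
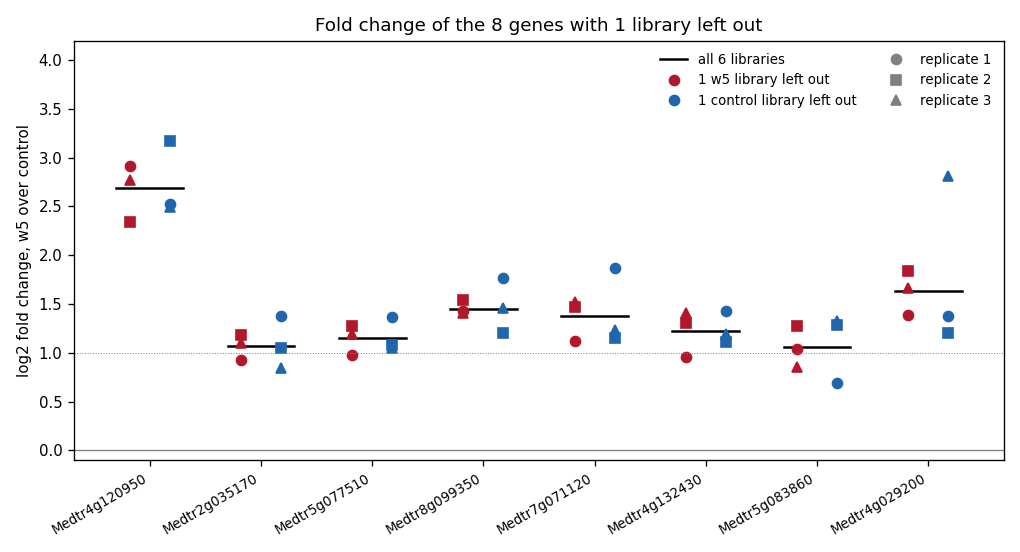
log2 fold change of w5 over control for each of the 8 genes with all 6 libraries (black line) and with 1 library with w5 (red) or without w5 (blue) left out, symbols giving the replicate left out. All values are above 0, the peroxidase Medtr4g029200 reaches 2.81 without control replicate 3, and Medtr5g083860 drops to 0.70 without control replicate 1.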

How the data were processed

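Root RNA of 3 libraries with w5 and 3 without w5 was compared. Read counts were deposited by the authors as whole, not normalized values. The authors' FPKM follow from count, gene length and library total, as a recalculation of 131099 values showed (relative differences of at most 5.09e-15). Bowtie 0.12.2 and mm8, a mouse build, stand in the submitters' processing notes, whereas the *M. truncatula* genome database is the reference in the paper. How reads were counted, whether strand was used and with which annotation is not given in the sources used here, which leaves the counts of close copies and of overlapping or antisense genes uncertain.

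Genes were kept by edgeR's filterByExpr (16905 of 50443), scaled by TMM and compared with the robust quasi-likelihood test in edgeR 4.0.16 under R 4.3.3, with group as its single term and Benjamini-Hochberg adjustment over all genes tested. Standard errors come from the F statistic of that test. The call rules were an adjusted p under 0.05, and an unadjusted p under 0.05 with an absolute log2 fold change over 1. log2 CPM used a prior count of 2. Libraries of a group differed by more than sampling noise (chi-square per gene from 9.29 to 29.4) and each was kept. P-values set the difference between the groups against the spread between these replicates, which the fit estimates with information shared over genes. Whether a replicate was a plant, a plate or a pool is not stated in the paper's methods. The fit was tested on simulated data.

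The 8 genes and all lists were chosen with earlier results of these data known. Lists were made from annotation words in the study's list of changed genes, without regard to its fold changes and p-values. The unadjusted call rule, however, was taken because every gene of the study's list meets it. Genes of these lists were therefore likely to pass it here, and their passing is not evidence. The plan to build families from protein sequence was replaced by these lists, because no protein table was at hand. All genes of the defence lists are named, tested or not, except in the NBS-LRR list, where the gene with the lowest p on each side is named. Also named are some genes beside one of the 8, and the 5 genes most like the mean pattern of the 8. All 8 genes matched a RefSeq gene by the gene number of the study's list. The alternatives used RLE or no scaling factors, no filter, a threshold of 1 CPM in 3 or more libraries, DESeq2 1.42.0, limma-voom (limma 3.58.1), edgeR's exact test, a block for the replicate number, and fits without each library in turn.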

Additional observations from a re-analysis of the deposited data

How the results depend on the processing

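All 8 genes kept fold changes above 0 in all 14 alternatives, and their groups stayed apart with TMM, RLE and no scaling factors. With TMM, 7.02% of all tested genes stood apart in this direction. The 8 genes were chosen on this contrast, and the TMM factors ran only from 0.984 to 1.01. The change of scaling could therefore alter little, and these values are a description. Over all genes, 3 passed an adjusted p under 0.05, against 195 with no filter, 540 with DESeq2, 529 with edgeR's exact test, and between 1 and 103 with 1 library left out, 103 being without control replicate 3. With the replicate number as a block it was 176. The correlations of deviations between the groups were 0.23, -0.05 and -0.03 for replicates 1, 2 and 3, and from -0.23 to 0.24 between unlike numbers. With 3 libraries in each group these values cannot decide whether the replicate numbers pair the samples. The causes were not tested. The number at an unadjusted p under 0.05 with an absolute log2 fold change over 1 was 806, and with 1 library left out it lay between 817 and 1067. The share of these that were higher was 42.7%, and 57.2% without control replicate 1. Of the 29 other list genes, 16 were called higher with no filter and with DESeq2, which test more genes. With 1 library left out, 5 to 12 were called higher, 5 being without w5 replicate 1, and 7 to 12 lower. Of the 18 calls among these genes, 8 held in all 14 alternatives, and 10 were lost in at least 1. Among the genes named above, Medtr3g065080 was lost without w5 replicate 1, Medtr8g089920 without control replicate 2 or 3, Medtr4g013260 without w5 replicate 1 or control replicate 3, Medtr8g092140 without control replicate 2, Medtr5g022350 without w5 replicate 1 or control replicate 2, and Medtr2g019250 without w5 replicate 1, w5 replicate 3 or control replicate 3. Medtr2g035150 passed with DESeq2, limma-voom and the block and without control replicate 2. The 40% identity alternative was not run, as no protein table was at hand. Low counts limit the Bet v I gene and Medtr4g029200.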
